A study of Sus scrofa with 59 samples.

Results

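The 7 genes of fatty acid uptake and mitochondrial import described here are LPL, FABP3, CPT1B, CPT2, SLC25A20, UCP3 and ACOT13, which were followed in the longissimus dorsi, the long muscle of the back, of 59 pigs. They were taken by the gene symbol that the array's annotation gives, and all 7 were found among 6765 named genes on the array. The pigs came from a cross named LD/LW x Duroc in the labels, were reared together, fed ad libitum and slaughtered at 170 days of age, and each muscle was hybridised to 1 Affymetrix porcine array. The study recorded carcass and meat quality traits and set muscle expression early after death against them. The labels used here give neither a trait value, a sex nor a treatment for any pig, so all arrays form 1 group. The comparisons are how far each gene varied between pigs and what varied with it.

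Muscle takes fatty acids from circulating triglyceride, binds them in the cytosol, activates them to acyl-CoA and carries them into mitochondria, where beta-oxidation and the respiratory chain use them. LPL, lipoprotein lipase, frees fatty acids from lipoprotein triglyceride at the capillary wall, and FABP3, the heart and muscle fatty acid binding protein, carries them in the cytosol. CPT1B, the muscle carnitine palmitoyltransferase of the outer mitochondrial membrane, makes acylcarnitine and is the step that malonyl-CoA inhibits. SLC25A20, the carnitine-acylcarnitine translocase, moves acylcarnitine across the inner membrane, and CPT2 turns it back into acyl-CoA inside. UCP3 is an inner membrane carrier of skeletal muscle from the uncoupling protein family, and ACOT13 is a thioesterase that splits acyl-CoA into fatty acid and coenzyme A. Slow, oxidative muscle fibres rely more on this route than fast, glycolytic fibres.

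Values are the deposited log2 values per probe set, where a probe set is the group of array probes that measures 1 transcript, and they ran from 2.39 to 15.04. Array medians lay between 6.23 and 6.30, and arrays correlated with each other at r from 0.969 to 0.995. The tissue label was checked against skeletal muscle markers: 8 of 11 were on the array, and their mean log2 value ran from 14.23 to 14.39 over the pigs. Adipocyte markers (8 of 10 on the array) had a mean between 6.64 and 7.67, and ADIPOQ, PPARG, RBP4 and RETN lay below the limit for testing. Macrophage markers (8 of 12, with CD14 and PTPRC below the limit) had a mean between 5.95 and 7.34, endothelial markers (8 of 9, with FLT1 and KDR below it) between 6.83 and 7.55, smooth muscle and pericyte markers (5 of 7) between 9.31 and 10.71, red blood cell markers (2 of 4) between 7.16 and 8.21, and nerve markers (2 of 5) between 6.35 and 7.95. The skeletal muscle list and the fast fibre list used below both name MYH1, TNNT3, TNNC2 and MYLPF, so their levels are not separate measures. Pig 72 stood apart: its slow fibre, oxidative phosphorylation, beta-oxidation and endothelial marker levels were the highest of the 59 and its fast fibre, glycolysis and skeletal muscle marker levels the lowest. Its array median (6.27) and its 3' to 5' control ratio (2.67 log2, against a range from 2.14 to 4.10) lay inside those of the other arrays, and its mean correlation with the other arrays was 0.985, where the range was 0.978 to 0.990. Results that rest on pig 72 are therefore given with and without it.

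At the capillary step, LPL ran from 8.39 in pig 15 through a median of 9.70 to 11.48 in pig 72, with a mean of 9.66 ± 0.53 log2 (SD, n = 59). The next highest pig had 10.55, so pig 72 lay well above the rest, and the highest and lowest pigs differed 8.53-fold. The SD of LPL exceeded that of 96.2% of the 4924 genes tested, whose median SD was 0.197. Without pig 72 the SD of LPL was 0.48, and that of UCP3 was 0.52. A second LPL probe set ran from 6.70 in pig 15 to 9.68 in pig 72 and followed the brighter one over the pigs (Pearson r = 0.912). In whole muscle, fewer cells of a type and less RNA per cell cannot be told apart.

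FABP3, the cytosolic carrier, had 12.06 in pig 46, a median of 12.99 and 14.01 in pig 72, with a mean of 13.01 ± 0.33 (SD, n = 59). Its probe set was brighter than 99.1% of all probe sets and so lay close to the scale's upper end. Pig 72 was highest again, and the next pig had 13.71.

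Among the import genes, CPT1B ran from 9.16 in pig 28 through a median of 9.82 to 10.88 in pig 72, where the next pig had 10.26, and averaged 9.79 ± 0.28 (SD, n = 59). SLC25A20 had the narrowest spread of the 7, from 9.29 in pig 36 through 9.73 to 10.08 in pig 21, with a mean of 9.72 ± 0.17 (SD, n = 59), and its SD exceeded that of 36.1% of genes tested. No pig stood apart for this carrier, and pig 72 was the 12th highest at 9.87. CPT2 ran from 5.85 in pig 36 through 6.28 to 6.85 in pig 67, with a mean of 6.30 ± 0.19 (SD, n = 59). Its mean was the lowest of the 7 genes and lay just above the limit of 6.28 for testing, which is the median of all probe sets. How near this is to background was not tested. For CPT2 pig 72 had 6.14, the 11th lowest value.

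UCP3, the inner membrane carrier, had 8.05 in pig 44, a median of 9.20 and 10.56 in pig 4, with a mean of 9.20 ± 0.52 (SD, n = 59) and a 5.70-fold difference between the ends. Its SD exceeded that of 96.1% of genes tested, and 5 pigs lay above pig 72, which had 9.86. The second UCP3 probe set followed the brighter one with r = 0.919. ACOT13 ran from 9.68 in pig 36 through 10.08 to 11.07 in pig 72, where the next pig had 10.51, and averaged 10.10 ± 0.24 (SD, n = 59). Its second probe set followed with r = 0.827, and pig 72 was highest in both. Pig 72 thus held the highest value of LPL, FABP3, CPT1B and ACOT13, at 3.01 to 4.07 SD above the mean. At the other end, pig 36 had the lowest CPT2, SLC25A20 and ACOT13 and the second lowest LPL, CPT1B and UCP3, but an FABP3 value of 12.96 near the median. Its array was the least like the rest, with the lowest mean correlation with the other arrays (0.978). On the list scores explained below, pig 36 was lowest for oxidative phosphorylation (-2.33) and beta-oxidation (-2.24). It was highest for heat shock (2.82) and immediate early genes (2.66).

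**Figure D1:**
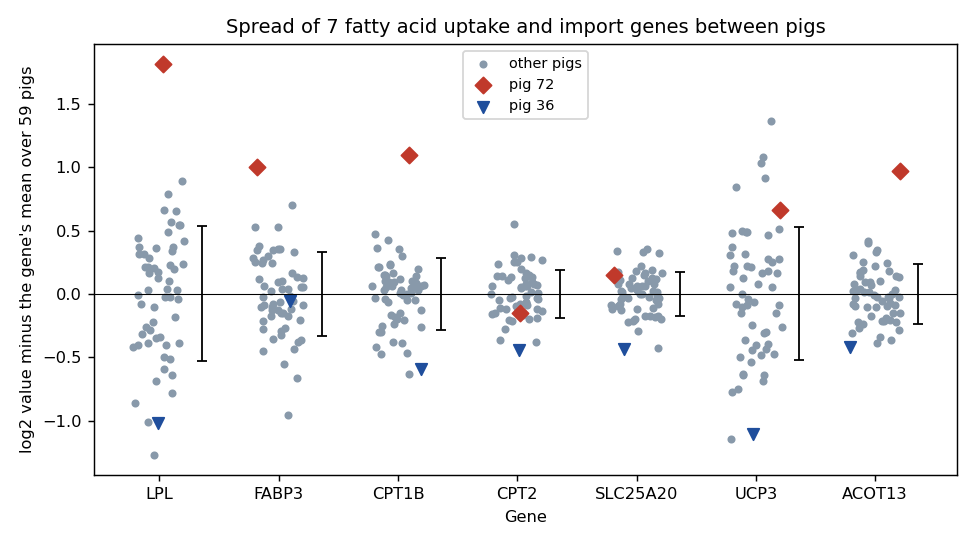
Log2 value of each gene in each pig minus that gene's mean over the 59 pigs (y axis), by gene (x axis); each point is 1 pig and the black bars show the SD on either side of 0. Pig 72 (red diamonds) lies above all others for LPL, FABP3, CPT1B and ACOT13 and inside the range for CPT2, SLC25A20 and UCP3, and pig 36 (blue triangles) is lowest for CPT2, SLC25A20 and ACOT13.

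LPL, FABP3, CPT1B, ACOT13 and UCP3, 5 of the 7 genes, were linked by positive relations between pigs, whereas SLC25A20 and CPT2 were in no pair that passed in both directions. Each gene in turn served as predictor in a limma fit of all probe sets, with p-values adjusted over all of them, and a pair was counted only when both fits passed 0.05, with the one gene and then the other as predictor. Of 21 pairs 8 passed, all 8 positive. The background differed widely by predictor: the share of all probe sets passing was 7.36% for LPL, 23.1% for FABP3, 12.3% for CPT1B, 32.3% for CPT2, 0.142% for SLC25A20, 9.87% for UCP3 and 8.37% for ACOT13. With the CPT1B fit, 5 of the 6 other genes passed, with the FABP3 fit 4, with LPL, ACOT13 and UCP3 3 each, and with CPT2 and SLC25A20 none, where limma's unadjusted p was under 0.05 for 1 and 2 genes.

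The closest pair was FABP3 with CPT1B, the cytosolic carrier and the outer membrane transferase. Their Pearson r was 0.593 and Spearman rho 0.561 (permutation p = 1e-05 for each, the smallest that 100000 resamples can give), and the larger of the 2 limma adjusted p-values was 8.15e-05. LPL correlated with FABP3 at r = 0.530 (permutation p = 1e-05) and rho = 0.492 (p = 7e-05, limma adjusted p = 0.00142), and with CPT1B at r = 0.520 (permutation p = 5e-05) and rho = 0.401 (p = 0.00178, limma adjusted p = 0.00199). Lipase, carrier and transferase thus tended to be high in the same pigs. UCP3 was higher where FABP3 was higher (r = 0.424, permutation p = 0.00089, rho = 0.428, p = 0.00068, limma adjusted p = 0.0171) and where CPT1B was higher (r = 0.409, permutation p = 0.00123, rho = 0.350, p = 0.00695, limma adjusted p = 0.0226). With UCP3 as predictor the second LPL probe set passed (r = 0.411, limma adjusted p = 0.0207), whereas the brighter one did not (r = 0.219, 0.265).

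ACOT13 was paired with FABP3 (r = 0.489, permutation p = 0.00016, rho = 0.404, p = 0.00173, limma adjusted p = 0.00241), with LPL (r = 0.429, permutation p = 0.00098, limma adjusted p = 0.0168) and with CPT1B (r = 0.415, permutation p = 0.00192, limma adjusted p = 0.0174). By rank the last of these relations were weaker, with rho = 0.231 (p = 0.0793) for LPL and 0.173 (p = 0.193) for CPT1B. Leaving out pigs 72 and 15, the 2 farthest from the median of LPL, gave r = 0.210 for LPL with ACOT13. Leaving out pigs 72 and 28 gave 0.213 for CPT1B with ACOT13. Without pig 72 alone these r were 0.246 and 0.190, so both rest largely on pig 72. With LPL as predictor the second ACOT13 probe set did not pass (limma adjusted p = 0.0967).

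Without pig 72 alone, the share of all probe sets passing was 1.89% for LPL, 17.3% for FABP3, 6.14% for CPT1B, 7.91% for UCP3 and 4.63% for ACOT13. In those fits 4 of the 21 pairs passed, all among the 8: FABP3 with CPT1B (r = 0.493, limma adjusted p = 0.00553), FABP3 with UCP3 (0.395, 0.0341), LPL with FABP3 (0.427, 0.0418) and CPT1B with UCP3 (0.382, 0.0436). The others fell to r = 0.376 for LPL with CPT1B, 0.354 for FABP3 with ACOT13, 0.246 for LPL with ACOT13 and 0.190 for CPT1B with ACOT13. Without pig 5, FABP3 with UCP3 also missed the threshold (r = 0.376, limma adjusted p = 0.0568). With the 2 farthest pigs of the first gene left out, the values were 0.491 for FABP3 with CPT1B, 0.417 for LPL with FABP3, 0.436 for LPL with CPT1B, 0.407 for FABP3 with UCP3, 0.399 for CPT1B with UCP3 and 0.387 for FABP3 with ACOT13.

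SLC25A20 passed with CPT1B (r = 0.384, permutation p = 0.00283, rho = 0.353, p = 0.00634) only when CPT1B was the predictor (limma adjusted p = 0.0315, against 0.146 the other way), and with UCP3 (r = 0.371, permutation p = 0.00416, rho = 0.286, p = 0.0295) only when UCP3 was the predictor (0.0451, against 0.163). Leaving out pigs 36 and 47, the 2 farthest from the median of SLC25A20, gave r = 0.266 for SLC25A20 with UCP3. Leaving out pigs 72 and 28 gave 0.352 for CPT1B with SLC25A20. The r of SLC25A20 with LPL was 0.018 (permutation p = 0.89, rho = -0.047, p = 0.725). CPT2, although it acts next to these enzymes, had r between -0.290, with FABP3, and 0.101, with UCP3. The FABP3 value had a permutation p of 0.0263 (rho = -0.315, p = 0.0155) and did not pass over all probe sets (limma adjusted p = 0.089).

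**Figure D2:**
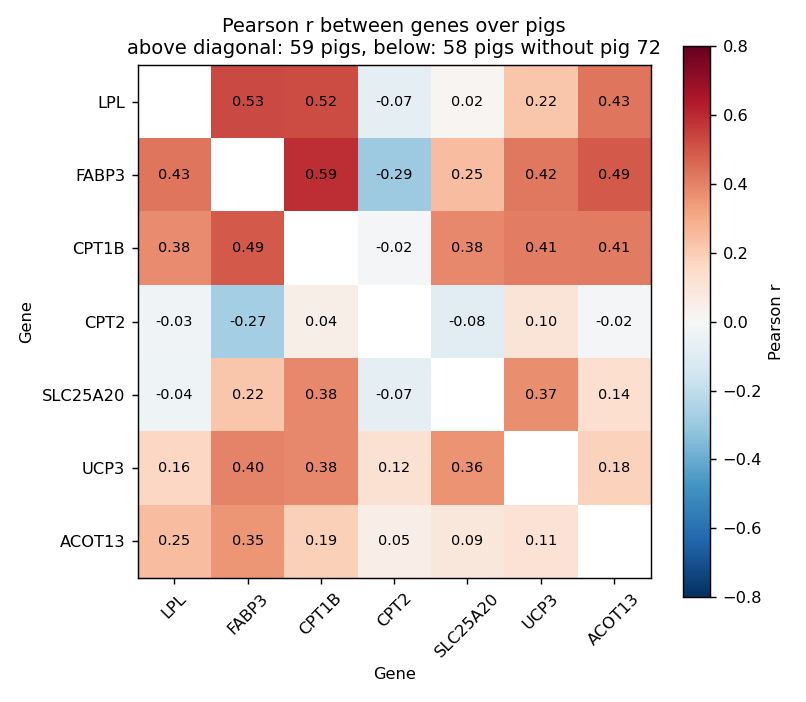
Pearson r between each pair of the 7 genes over pigs, printed in each cell and coloured from blue (negative) to red (positive), with all 59 pigs above the diagonal and the 58 pigs without pig 72 below it. The 4 genes LPL, FABP3, CPT1B and ACOT13 have r from 0.41 to 0.59 above the diagonal and from 0.19 to 0.49 below it, and CPT2 has no r above 0.13 with any gene.

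ACOT13, FABP3, CPT1B, LPL and UCP3, 5 of the 7 genes, rose with the oxidative phosphorylation score, which was built from 27 respiratory chain and ATP synthase genes. The score of a list is the mean of its genes' standardised log2 values, scaled to an SD of 1, and none of the 7 genes is in any list. For each SD of that score ACOT13 rose by 0.19 ± 0.02 log2 (SE over 59 pigs, limma adjusted p = 2.52e-11) and FABP3 by 0.26 ± 0.03 (1.34e-10). CPT1B rose by 0.17 ± 0.03 (limma adjusted p = 4.45e-05), LPL by 0.26 ± 0.06 (0.00138) and UCP3 by 0.19 ± 0.06 (0.0388), while SLC25A20 had 0.05 ± 0.02 (0.108) and CPT2 -0.02 ± 0.02 (0.742). Of all probe sets 10.8% passed. Without pig 72 ACOT13 (0.15, limma adjusted p = 1.95e-08), FABP3 (0.22, 2.42e-08) and CPT1B (0.11, 0.00636) passed, whereas LPL (0.17, 0.0615) and UCP3 (0.17, 0.107) did not, and 5.87% of probe sets did. The UCP3 call was also lost without any 1 of pigs 4, 12, 19, 31, 36, 42, 52 and 64, and the second UCP3 probe set had 0.12 ± 0.06 (limma adjusted p = 0.161). Without the filter on dim probe sets the UCP3 slope had an adjusted p of 0.0652.

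The beta-oxidation score, built from 15 enzymes and electron transfer proteins of the pathway that the imported acyl-CoA enters, was followed by 5 genes, where 7.97% of probe sets passed. CPT1B rose by 0.19 ± 0.03 log2 per SD (SE, n = 59, limma adjusted p = 1.97e-06), ACOT13 by 0.16 ± 0.02 (1.24e-06), FABP3 by 0.20 ± 0.04 (6.11e-05), LPL by 0.25 ± 0.06 (0.00449) and SLC25A20 by 0.07 ± 0.02 (0.0152). This was the only one of the 10 scores that SLC25A20 followed. UCP3 had 0.12 ± 0.07 (limma adjusted p = 0.302) and CPT2 0.00 ± 0.02 (0.967). Without pig 72 the slopes of CPT1B, ACOT13, FABP3 and SLC25A20 still passed, at 0.13, 0.11, 0.15 and 0.08, and LPL did not (0.14, limma adjusted p = 0.139), with 6.14% of probe sets passing. The SLC25A20 slope was 0.06 (limma adjusted p = 0.0696) without pig 36, its lowest pig.

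LPL, FABP3, CPT1B and ACOT13 were higher in pigs with a higher slow fibre score, which held 8 genes of slow contractile proteins, and lower in pigs with a higher fast fibre score of 6 genes. On the slow fibre score, where 4.98% of probe sets passed, LPL rose by 0.28 ± 0.06 (SE, n = 59, limma adjusted p = 0.00183), FABP3 by 0.16 ± 0.04 (0.00468), CPT1B by 0.14 ± 0.03 (0.00525) and ACOT13 by 0.15 ± 0.02 (2.15e-05). On the fast fibre score, where 24.0% passed, LPL fell by 0.27 ± 0.06 (limma adjusted p = 0.00067), FABP3 by 0.15 ± 0.04 (0.00402), CPT1B by 0.10 ± 0.03 (0.0274) and ACOT13 by 0.09 ± 0.03 (0.0197). The second ACOT13 probe set did not pass on the fast fibre score (-0.06 ± 0.03, limma adjusted p = 0.14). Of the 8 calls above, 6 were lost without pig 72. Without it only ACOT13 passed on the slow fibre score (0.11, limma adjusted p = 0.00609), with LPL at 0.19 (0.0906), FABP3 at 0.12 (0.137) and CPT1B at 0.08 (0.241). The background there fell to 0.945%. On the fast fibre score only LPL passed (-0.17, limma adjusted p = 0.0336), with FABP3 at -0.09 (0.0844), CPT1B at -0.03 (0.598) and ACOT13 at -0.02 (0.55), and 20.8% of probe sets passing. UCP3, SLC25A20 and CPT2 passed on neither fibre score in either case.

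With the slow fibre score as a covariate, 3 of the 21 pairs passed: FABP3 with CPT1B (partial r = 0.467, limma adjusted p = 0.00621), FABP3 with UCP3 (0.395, 0.0303) and CPT1B with UCP3 (0.378, 0.0392). ACOT13, FABP3 and CPT1B still followed the oxidative phosphorylation score in that fit, by 0.15 (limma adjusted p = 5.19e-07), 0.24 (2.4e-07) and 0.13 (0.0143), and SLC25A20 followed it by 0.08 (0.0464). LPL passed there on the fast fibre score alone (-0.18, limma adjusted p = 0.0236). The share of all probe sets passing is not given here for each of these fits. Summed over all fits, 30270 probe set calls were made with this covariate. Without it there were 32912, with the slow fibre fit included.

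**Figure D3:**
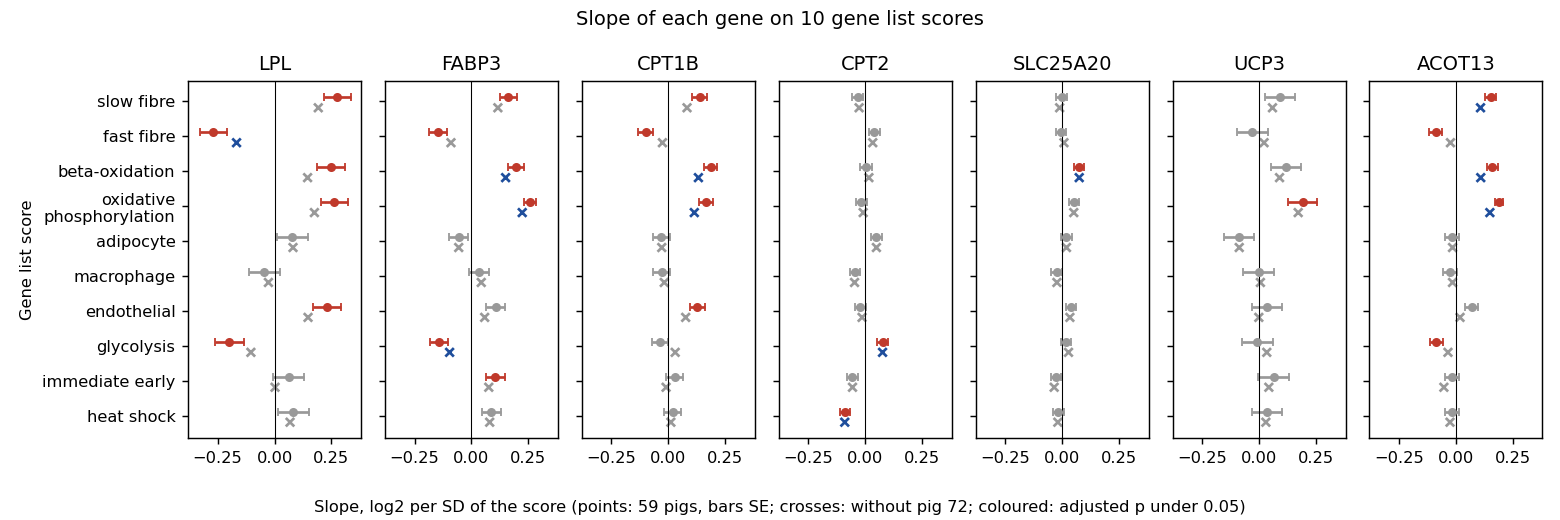
Slope of each gene (1 panel per gene) on 10 gene list scores (y axis), in log2 per SD of the score (x axis); points with SE bars are from 59 pigs, crosses from 58 pigs without pig 72, and colour marks an adjusted p under 0.05. LPL, FABP3, CPT1B and ACOT13 have positive slopes on the slow fibre, beta-oxidation and oxidative phosphorylation scores, and the crosses of all 4 lie nearer to 0 than the points on all 3.

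LPL is also made by adipocytes and macrophages and acts at the endothelium, so scores of those cells were compared, built from 4 adipocyte, 6 macrophage and 6 endothelial genes above the limit for testing. None of the 7 genes followed the adipocyte score, where limma called 15.8% of probe sets and an unadjusted p was under 0.05 for CPT2 alone (0.05 ± 0.02 log2 per SD, SE, n = 59, adjusted p = 0.154). LPL had 0.08 ± 0.07 (limma adjusted p = 0.444). No gene followed the macrophage score either, with 7.13% of probe sets called and no unadjusted limma p under 0.05, and LPL had -0.05 ± 0.07 (adjusted p = 0.8). On the endothelial score, where 3.34% of probe sets passed, LPL rose by 0.23 ± 0.06 (limma adjusted p = 0.0195) and CPT1B by 0.13 ± 0.03 (0.0133). Neither passed without pig 72 (LPL 0.15, limma adjusted p = 0.329, and CPT1B 0.08, 0.326), which had the highest endothelial level.

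Whether uptake and import genes differed in how they followed adipocyte and slow fibre scores was tested directly. In SD per SD of the adipocyte score, LPL had 0.147 and CPT1B -0.108, a difference of 0.255 (permutation p = 0.0454, adjusted p = 0.181 over the 4 differences tested, n = 59). FABP3 minus CPT1B differed by -0.061 on that score (permutation p = 0.607, adjusted p = 0.983). On the slow fibre score the differences from CPT1B were 0.033 for LPL (permutation p = 0.8, adjusted p = 0.983) and 0.003 for FABP3 (permutation p = 0.983, adjusted p = 0.983). None of the 4 differences passed.

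Glycolysis, heat shock and immediate early scores were followed by large parts of the array, 31.2%, 45.8% and 30.6% of probe sets, and 4, 1 and 1 of the 7 genes passed on them. On the glycolysis score FABP3 fell by 0.14 ± 0.04 log2 per SD (SE, n = 59, limma adjusted p = 0.00327), LPL by 0.20 ± 0.06 (0.0132) and ACOT13 by 0.09 ± 0.03 (0.0168), while CPT2 rose by 0.08 ± 0.02 (0.00754). The second probe sets of LPL and ACOT13 did not pass on this score (limma adjusted p = 0.0571 and 0.216). Without pig 72 FABP3 (-0.10, limma adjusted p = 0.0497) and CPT2 (0.08, 0.00898) passed. With the first principal component of all probe sets as covariate neither did (FABP3 -0.07, limma adjusted p = 0.299, and CPT2 0.02, 0.592). FABP3 also missed with the slow fibre score as covariate (0.0979) and with the 2 most extreme pigs on the glycolysis score left out (0.133), and CPT2 with arrays re-centred on their medians (0.0801). CPT2 was the only gene of the 7 that followed the heat shock score, lower by 0.09 ± 0.02 per SD (limma adjusted p = 0.000575), and the value was the same to 2 decimals without pig 72. With that component as covariate, which itself contains the heat shock genes, the CPT2 slope was 0.0006 (limma adjusted p = 0.995). FABP3 passed on the immediate early score (0.11 ± 0.04, limma adjusted p = 0.0436) and lost that call without any 1 of 13 pigs, with adjusted p-values from 0.0504 to 0.137, the highest without pig 72.

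**Figure D4:**
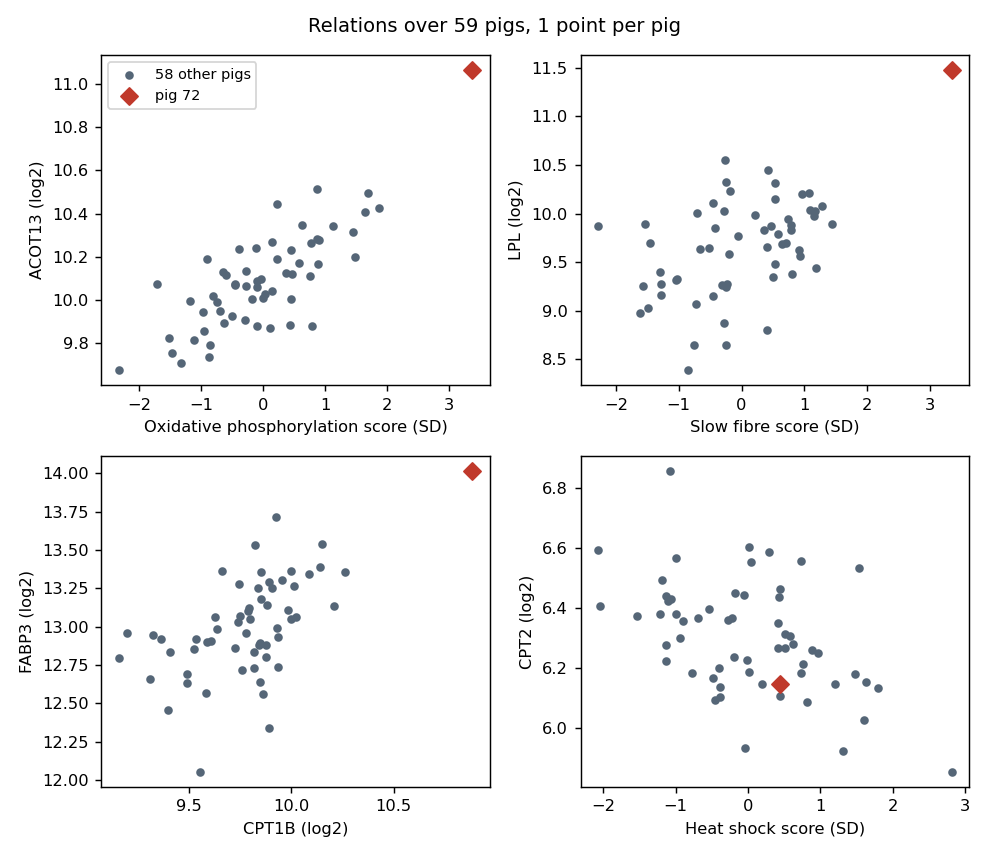
Each point is 1 pig: ACOT13 against the oxidative phosphorylation score, LPL against the slow fibre score, FABP3 against CPT1B and CPT2 against the heat shock score, with genes in log2 and scores in SD. Pig 72 (red diamond) is at the upper right of the panels for ACOT13, LPL and FABP3 and inside the cloud of the CPT2 panel, where values fall from left to right.

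The genes most like each of the 7 over the 59 pigs were named by Pearson r among all genes tested, with limma adjusted p-values from the same fits. For CPT1B they were ACADVL (r = 0.792, adjusted p = 4.57e-10), the very long chain acyl-CoA dehydrogenase that starts beta-oxidation of long chains, SDHA (0.725), a succinate dehydrogenase subunit, LOC100156879 (0.721), and HADHA (0.720) and HADH (0.719), later enzymes of the same pathway. Without pig 72 these r were 0.627 to 0.723. The lowest r were those of the nuclear transport GTPase gene RAN (-0.681), PPIL3 (-0.662) and the ribosomal protein gene RPL22 (-0.610).

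FABP3 was most like MDH1 (r = 0.831, limma adjusted p = 3.77e-12), the cytosolic malate dehydrogenase, ATP5G3 (0.828), a subunit of ATP synthase, OXNAD1 (0.824), ALAS1 (0.818), which catalyses the entry step of haem synthesis, and NDUFA9 (0.810), a complex I subunit. These stayed between 0.769 and 0.812 without pig 72. Its lowest r were those of CAND2 (-0.682), ANKMY2 (-0.666) and CAMSAP1 (-0.657).

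ACOT13 was most like NDUFA13 (r = 0.870, limma adjusted p = 1.15e-13), APOO (0.869), ATP5G1 (0.842), NDUFB2 (0.819) and NDUFA11 (0.810). NDUFA13, NDUFB2 and NDUFA11 are complex I subunits, ATP5G1 is an ATP synthase subunit and APOO a protein of the mitochondrial inner membrane. Without pig 72 the r were 0.728 to 0.844. The lowest were RAC1 (-0.672), OAZ1 (-0.660) and JAK1 (-0.570).

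LPL had looser neighbours: PDLIM1 (r = 0.614, limma adjusted p = 0.00019), the cytochrome P450 reductase gene POR (0.613), NDUFAB1 (0.610), the mitochondrial acyl carrier protein, LDHB (0.606), the lactate dehydrogenase chain of oxidative tissue, and C1H9orf16 (0.605). They ranged from 0.473 to 0.524 without pig 72. DEK (-0.640), RNPEP (-0.636) and MBD2 (-0.613) were lowest.

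UCP3 was most like FDX1 (r = 0.660, limma adjusted p = 4.55e-05), a mitochondrial ferredoxin, CCDC127 (0.618), ILVBL (0.614), the phospholipid transfer protein gene PLTP (0.610) and RNPS1 (0.610), and these changed little without pig 72 (0.595 to 0.648). Its lowest r were those of LUM (-0.590), which encodes the matrix proteoglycan lumican, TUSC3 (-0.573) and MLLT3 (-0.561).

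SLC25A20 had only 17 probe sets past the threshold in its fit, all positive. Its nearest genes were HADHA (r = 0.621, limma adjusted p = 0.00146), HOXA9 (0.592, 0.00322), ETFDH (0.543, 0.0267), which passes electrons from fatty acid oxidation to the respiratory chain, the outer membrane channel gene VDAC3 (0.534, 0.0267) and INHBA (0.526, 0.0267). Without pig 72 the r were 0.524 to 0.639. The lowest, WSB2 (-0.477, limma adjusted p = 0.0715), PMEPA1 (-0.425, 0.0885) and PIM3 (-0.385, 0.14), did not pass.

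CPT2 was most like RPUSD1 (r = 0.729, limma adjusted p = 4.4e-07), the amino acid transporter family gene SLC7A4 (0.709), the transcription factor genes MYBL2 (0.690) and SPIB (0.676), and LOC100624032 (0.690). Of these 5 genes, SLC7A4, MYBL2, SPIB and LOC100624032 had means from 6.38 to 7.05 log2, not far above the limit of 6.28 for testing, and RPUSD1 had 9.30. CPT2 was lowest against HSPA5 (-0.673), an endoplasmic reticulum chaperone, FAM91A1 (-0.659) and SERPINH1 (-0.655), the collagen chaperone.

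The neighbouring steps of the route were followed through gene lists. The 15 beta-oxidation genes are those that built the beta-oxidation score, so the list and the score are not separate measures. ACADVL, HADHA, HADH and ETFDH, named above among the most alike genes, are in that list too. Of 15 beta-oxidation genes tested, 10 rose with FABP3, 9 with CPT1B, 9 with ACOT13, 4 with LPL, 2 with SLC25A20 and 2 with UCP3. None fell with any of the 7, and none followed CPT2 in limma at either an adjusted or an unadjusted p under 0.05. These were 66.7% of the list for FABP3, 60.0% for CPT1B and for ACOT13, 26.7% for LPL, and 13.3% for SLC25A20 and for UCP3. Of all probe sets 23.1%, 12.3%, 8.37%, 7.36%, 0.142% and 9.87% passed with these 6 genes in that order. The share for UCP3 thus lay near that of all probe sets. The list's median r was 0.464 with CPT1B, 0.406 with ACOT13, 0.398 with FABP3, 0.319 with LPL, 0.282 with SLC25A20, 0.214 with UCP3 and 0.026 with CPT2, where the median over all genes tested lay between -0.053 and 0.041. Without pig 72 the counts were 6 for FABP3, 7 for CPT1B, 7 for ACOT13, 1 for LPL, 2 for SLC25A20 and 2 for UCP3. Of all probe sets 17.3%, 6.14%, 4.63%, 1.89%, 0.134% and 7.91% then passed, in the same order. FABP3 went with ACADVL at r = 0.691 (limma adjusted p = 1.49e-07) and with ETFDH at r = 0.607 (1.71e-05), and both passed without pig 72. The single gene left for LPL was HADH (r = 0.461, limma adjusted p = 0.0299), against r = 0.578 with all pigs. ACAA2, the thiolase of the last step, went with ACOT13 at r = 0.723 (limma adjusted p = 3.09e-08, r = 0.649 without pig 72), and HADHB, the other subunit of the trifunctional protein, with FABP3 at r = 0.708 (6.3e-08, r = 0.648).

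**Figure D5:**
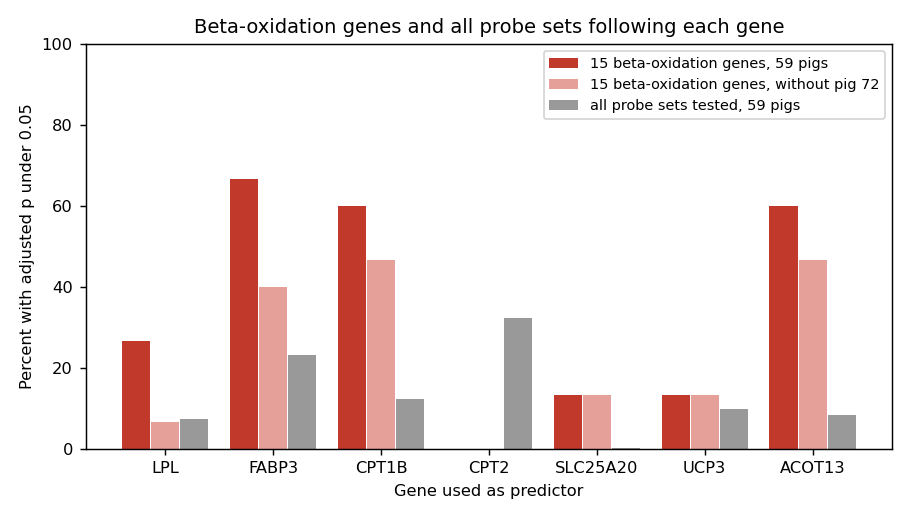
Percent of the 15 beta-oxidation genes tested with an adjusted p under 0.05 (y axis) when each of the 7 genes is the predictor (x axis), with all 59 pigs (dark red) and without pig 72 (light red), beside the percent of all probe sets tested (grey). The grey bars are from all 59 pigs. Without pig 72 the percent of all probe sets was 17.3% for FABP3, 6.14% for CPT1B, 4.63% for ACOT13 and 1.89% for LPL. The 9 genes called for CPT1B and for ACOT13 and the 10 for FABP3 stand above the grey bars of 12.3%, 8.37% and 23.1%, and CPT2 has none beside 32.3%.

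Among 12 genes of uptake and activation, 5 rose with ACOT13, 4 with FABP3, 3 with LPL, 2 with CPT1B and 2 with UCP3, none fell with these, and none passed with SLC25A20 (4 at an unadjusted limma p under 0.05). These were 41.7% of the list for ACOT13, 33.3% for FABP3, 25.0% for LPL, 16.7% for CPT1B and 16.7% for UCP3, beside 8.37%, 23.1%, 7.36%, 12.3% and 9.87% of all probe sets. The shares for FABP3 and CPT1B lay near those of all probe sets, as did the 41.7% for CPT2 beside 32.3%. ACSL1, the acyl-CoA synthetase of muscle and fat, followed FABP3 closely (r = 0.760, limma adjusted p = 2.06e-09, and r = 0.738 without pig 72). DBI, which binds acyl-CoA, followed ACOT13 (r = 0.653, limma adjusted p = 3.78e-06, and r = 0.596 without pig 72). LPL went with FABP5, a fatty acid binding protein of other tissues (r = 0.491, limma adjusted p = 0.0041), and with CAV1, the coat protein of caveolae (r = 0.50, 0.00391), and without pig 72 these were r = 0.415 (0.0522) and 0.435 (0.0423). The counts without pig 72 were 1 for ACOT13, 2 for FABP3, 1 for LPL, 0 for CPT1B and 1 for UCP3. Of all probe sets 4.63%, 17.3%, 1.89%, 6.14% and 7.91% then passed, in the same order. CPT2 was higher with SLC27A1, a fatty acid transport protein (r = 0.362, limma adjusted p = 0.0198), and GPIHBP1, the endothelial anchor of LPL (r = 0.426, 0.00525), and lower with FABP5, ANGPTL4, an inhibitor of LPL, and ACSL5 (r from -0.416 to -0.327).

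PDK4, the kinase that shuts pyruvate out of oxidation, rose with FABP3 (r = 0.557, limma adjusted p = 0.000126), LPL (r = 0.527, 0.00163) and CPT1B (r = 0.441, 0.00823), and all 3 passed without pig 72 (r = 0.536, 0.504 and 0.409). PLIN2, a coat protein of lipid droplets, rose with FABP3 (r = 0.549, limma adjusted p = 0.000132) and fell with CPT2 (r = -0.503, 0.00051). In the list of lipid-responsive genes these were 2 of 4 called for FABP3, 1 for LPL, 1 for CPT1B and, with ANGPTL4, 2 for CPT2. The shares were 50.0%, 25.0%, 25.0% and 50.0% of the list, beside 23.1%, 7.36%, 12.3% and 32.3% of all probe sets. A list of 4 genes is too short to set against those shares. Among 8 regulators, FOXO1 rose with UCP3 (r = 0.490, limma adjusted p = 0.00463) and FABP3 (0.394, 0.012), and passed with both without pig 72. PPARGC1A, a coactivator of mitochondrial genes, rose with UCP3 (r = 0.385, limma adjusted p = 0.0305) and FABP3 (0.370, 0.019) and passed with neither without pig 72 (0.0524 and 0.0732). KLF15, PPARD and RXRG had r = 0.439, 0.426 and 0.323 with CPT2 and passed. The regulators called were 37.5% of the list for CPT2, 25.0% for FABP3 and 25.0% for UCP3, where 32.3%, 23.1% and 9.87% of all probe sets passed, so the counts for CPT2 and FABP3 are at the level of the whole array. No regulator passed with LPL, CPT1B, SLC25A20 or ACOT13, for which 2, 2, 0 and 0 had an unadjusted limma p under 0.05.

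Of 4 further thioesterase and carrier genes tested, 3 followed FABP3: SLC25A4, the ADP/ATP carrier of muscle (r = 0.733, limma adjusted p = 1.74e-07), ACOT9, a mitochondrial thioesterase (0.704, 5.86e-08), and SLC25A5 (0.426, 0.00584). These were 75.0% of this short list, beside 23.1% of all probe sets. For CPT1B, ACOT13, LPL and UCP3 the shares were 50.0%, 50.0%, 25.0% and 25.0%, beside 12.3%, 8.37%, 7.36% and 9.87%. SLC25A4 also rose with CPT1B (r = 0.489), ACOT13 (0.50) and UCP3 (0.439), and passed with all 4 without pig 72. ACOT9 also rose with CPT1B (r = 0.494), ACOT13 (0.465) and LPL (0.380), and passed with none of these without pig 72 (0.300, 0.246 and 0.183), while its r with FABP3 was then 0.634 (limma adjusted p = 9.54e-06). Of the carnitine list 3 genes were bright enough to be tested: CPT1A, the liver form of the transferase, CRAT, a carnitine acyltransferase of short chains, and ALDH9A1, an aldehyde dehydrogenase of carnitine synthesis. None of the 3 passed with any of the 7 genes, with an unadjusted limma p under 0.05 once with CPT2 and once with ACOT13.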

How the data were processed

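Total RNA of each muscle was labelled as biotin cRNA and hybridised to an Affymetrix porcine array, per the labels' protocols. The deposited values are log2 per probe set, made by the authors with GCRMA per the submitters' processing notes. Its version and the log base are not given in the sources used here, and log2 was read from the range of values. GCRMA can draw dim values together and saturation can limit bright ones, so differences of both may be understated, which was not tested.

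Of 24123 probe sets, 124 were controls and 10099 had 1 symbol in the platform annotation, 198 several and 13826 none. Of the symbols, 9989 were brought up to date by Entrez identifier. The 11972 probe sets with a mean of at least 6.28 log2, the median, were tested, and all 10 probe sets of the 7 genes passed. The brightest probe set stood for a gene. Slopes were fitted with limma 3.58.1 (lmFit, eBayes) in R 4.3.3, leaving out probe sets of the predictor's own genes, with Benjamini-Hochberg adjustment over all probe sets of a fit and a threshold of 0.05. Permutation tests were two-sided with 100000 resamples (Python 3.11.15, numpy 2.4.6, scipy 1.17.1). The fit was tested on simulated data.

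Named genes were the 7 genes, the 5 highest and 3 lowest by r for each, and from the pathway lists up to 6 called genes per gene with the smallest adjusted p. Further called list genes were named after their values were seen, mostly where 5 or fewer of a list passed. The 7 genes and all lists were chosen with earlier results of these data known. No batch is given in the labels, arrays are 1 per pig, and no pair of arrays held identical values. Alternatives were the filter, probe set choice, ranks, normalisation, left-out arrays and covariates. A promoter motif search was planned and not run, as promoter sequences were not used here.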

Additional observations from a re-analysis of the deposited data

How the results depend on the processing

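The count of 8 pairs of the 7 genes stayed at 8 without the filter on dim probe sets, with a gene's probe sets averaged, with arrays re-centred or quantile normalised, and with the adipocyte score or the 3' to 5' control ratio as covariate, and was 7 with the first principal component as covariate. It was 4 with ranks, 3 without the 2 arrays farthest from the predictor's median and 3 with the slow fibre score as covariate. Leaving out each pig in turn gave 4 to 8 pairs, with 4 without pig 72. Of 70 relations between a gene and a score, 26 passed, against 17 with ranks, 11 without the 2 farthest arrays and 13 of 63 with the slow fibre score as covariate. Left-out pigs gave 12 to 27, with 12 without pig 72. Calls over all probe sets, summed over the fits on genes and scores, also fell from 32912. They numbered 27672 with ranks, 23302 without the 2 farthest arrays and 28213 without pig 72. With the first principal component as covariate 2 relations changed sign and did not pass, FABP3 on the immediate early score (-0.0053) and CPT2 on the heat shock score (0.00064). Between genes of the 6 pathway lists and the 7 genes, 78 relations passed with all pigs. Without pig 72, an alternative chosen after seeing the data, 50 passed. In the fits on the 7 genes 0.142% to 32.3% of all probe sets passed with all pigs, and 0.134% to 32.2% without pig 72. The cause of the changes in these counts was not tested. The SD of LPL was 0.489 to 0.539 and that of UCP3 0.476 to 0.531 under other probe set choices and normalisations. No paired analysis was possible because all arrays form 1 group. CPT2 was the dimmest of the 7 genes, and GCRMA may compress the differences of dim probe sets, which was not tested.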
